A study of Mus musculus with 15 samples.

Results

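Ribosomal protein paralogues are closely related gene copies that encode alternative versions of a ribosome subunit protein. The 6 genes described here, of 23845 in the deposited files and 14335 tested, form 2 pairs with their relatives. The pairs are Rpl22l1 with Rpl22 and Rps27l with Rps27, and Rpl3 and Rpl7l1 complete the set. They were picked on these data, after the level of Rpl22l1 was seen to be lower in the knockdowns, so the values of Rpl22l1 against the control are given as a description with no test. All 6 passed the count filter, and Rpl7, the main partner of Rpl7l1, is given beside them.

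The study sequenced poly(A) RNA of E14 cells, a mouse embryonic stem cell line grown on gelatin, in 15 libraries of 5 groups with 3 replicates each. All cells received small interfering RNA with Lipofectamine for 16 h and were harvested at 48 h. EGFPKD, the control, had RNA against EGFP, and Ddx10KD, Ddx24KD, Ddx27KD and Ddx54KD had RNA against 1 DEAD-box RNA helicase each. The labels name no genotype beyond the E14 strain. The series' design text calls the replicates biological and does not say whether they were separate cultures, so p-values measure the spread between these libraries. By its title the series concerns R-loop binding proteins and the processing of ribosomal RNA.

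The libraries held 26836946 to 27708782 expected counts, which are reads that the RSEM program assigned to each gene. The targeted transcripts were at 19.3% (Ddx10), 30.9% (Ddx24), 23.1% (Ddx27) and 28.3% (Ddx54) of their mean EGFPKD level in their own knockdown. By edgeR, Ddx24 was also called lower in Ddx10KD (log2 -0.34, adjusted p 0.00412) and in Ddx27KD (-0.24, 0.0289). Ddx27 was called lower in Ddx54KD (-0.23, 0.00624). No other helicase of the 4 was called in a knockdown of another. The 8 embryonic stem cell markers lay between 296 and 2820 TPM, a measure of abundance per transcript length whose total is equal for all libraries. Of 10 fibroblast markers, 7 were under 1.2 TPM in every library, and Fn1, Vim and Thy1 were detected. Thy1 (log2 -0.73, -0.73, -0.76 and -0.48 in Ddx10KD, Ddx24KD, Ddx27KD and Ddx54KD) and Vim (-0.61, -0.57, -0.51 and -0.19) fell in all 4 knockdowns by edgeR, and Fn1 was not called. Of the stem cell markers 2, 2, 3 and 2 fell and 0, 1, 1 and 1 rose. Nanog, a pluripotency factor, fell in Ddx10KD (-0.47), Ddx24KD (-0.32) and Ddx27KD (-0.43), and Zfp42 in all 4 (-0.33, -0.33, -0.40 and -0.30). Pou5f1 fell in Ddx27KD (-0.18) and Ddx54KD (-0.16), and Sox2 rose in Ddx24KD, Ddx27KD and Ddx54KD (0.24, 0.26 and 0.23). The part of these marker changes in the results below was not tested.

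One library stood apart from its group. The mean chi-squared per gene between replicates, which counting noise alone would put near 1, was 12.8 and 20.02 for the pairs with Ddx24KD replicate 2 and 5.67 to 10.8 for the other 13 pairs. Without it, 3 members were called in Ddx24KD, as with it, and the log2 change was -1.24 for Rpl22l1, 0.42 for Rps27l, 0.05 for Rps27, -0.28 for Rpl3 and -0.23 for Rpl7l1.

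As background, Rpl22 and Rpl22l1 are alternative proteins of the large ribosomal subunit, and the Rpl22 protein is known to hold down the expression of Rpl22l1. Rps27 and Rps27l are alternative proteins of the small subunit, and Rps27l is a known target of p53, the transcription factor that responds to DNA damage and to faults in ribosome assembly. Rpl3 is a large-subunit protein near the catalytic centre with no partner in this set. Rpl7l1 resembles Rpl7 and is related to a yeast factor that helps to assemble the large subunit.

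The coding sequences show how well short reads can tell each pair apart. Rps27 and Rps27l have coding sequences of 255 bases each, of which 194 are equal (76.1%), and the longest equal run is 11 bases. Both are shown whole, 5′ to 3′, because their ratio is measured below. They come from GENCODE M21 transcripts on mm10, and capitals mark the 61 bases at which they differ.
Rps27: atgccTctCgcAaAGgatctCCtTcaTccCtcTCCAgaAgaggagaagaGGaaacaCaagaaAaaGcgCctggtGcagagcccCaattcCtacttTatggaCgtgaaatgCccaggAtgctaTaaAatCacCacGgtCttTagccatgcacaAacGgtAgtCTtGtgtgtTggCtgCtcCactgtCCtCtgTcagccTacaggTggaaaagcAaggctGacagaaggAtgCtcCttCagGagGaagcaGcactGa
Rps27l: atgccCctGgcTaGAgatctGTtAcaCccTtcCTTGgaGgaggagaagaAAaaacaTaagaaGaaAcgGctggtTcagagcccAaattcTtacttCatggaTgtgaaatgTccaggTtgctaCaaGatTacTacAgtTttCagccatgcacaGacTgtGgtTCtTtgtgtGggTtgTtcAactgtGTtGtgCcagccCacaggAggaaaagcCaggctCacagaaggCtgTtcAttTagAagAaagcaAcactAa

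The coding sequences of Rpl22 (387 bases) and Rpl22l1 (369 bases) align over 369 bases, of which 259 are equal (70.2%). The longest equal run is 26 bases, and no 50-base window is shared within any of the pairs. The stretch of 180 aligned bases with the most equal bases is shown, from base 186 of Rpl22 and base 168 of Rpl22l1. It stands for the part most alike, and capitals mark the 42 differing bases.
Rpl22: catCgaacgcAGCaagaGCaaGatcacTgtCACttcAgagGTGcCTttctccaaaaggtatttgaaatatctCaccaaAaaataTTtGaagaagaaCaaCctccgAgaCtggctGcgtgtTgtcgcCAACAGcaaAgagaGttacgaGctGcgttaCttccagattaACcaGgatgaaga
Rpl22l1: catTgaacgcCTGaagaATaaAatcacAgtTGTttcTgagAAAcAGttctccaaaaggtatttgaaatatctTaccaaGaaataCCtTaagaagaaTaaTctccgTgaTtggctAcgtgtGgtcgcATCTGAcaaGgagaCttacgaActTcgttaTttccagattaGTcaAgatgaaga

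Rpl7 and Rpl7l1 were less alike, with 57.9% of 736 aligned coding bases equal. Other copies in the genome are closer than these partners. The 50-base windows of a single annotated coding transcript per gene were looked up in GENCODE transcripts of other genes. The share found there was 65.6% in Rpl22l1, 5.19% in Rpl22, 22.4% in Rps27l, 98.6% in Rps27, 85.6% in Rpl3 and 9.19% in Rpl7l1. Rpl22 and Rps27 have 5 and 2 transcripts in the deposited files, so their shares hold for the transcript used. Rps27rt, a coding copy of Rps27, is not counted in the deposited files, so the Rps27 values may hold reads of both. The copies were not ranked by likeness. For Rpl22l1, 56.5% of windows occur in a gene that the files do count, Gm15421, a transcribed pseudogene chosen here after its overlap was seen. Its expected counts were 1.19 to 13.8 per library, against 446 to 1630 for Rpl22l1. At most 2.35% of the sum of both was assigned to Gm15421 in any library. For Rpl7l1, 4.03% of windows recur in counted genes, and for the other 4 none do.

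Rpl22l1 lies on mm10 chromosome 3, 28805436 to 28807424, forward strand, gene ENSMUSG00000039221.10. Rps27 lies on chromosome 3, 90212522 to 90213651, reverse strand, gene ENSMUSG00000090733.6. Rpl22 lies on chromosome 4, 152325742 to 152334071, forward strand, gene ENSMUSG00000028936.15. Rps27l lies on chromosome 9, 66946086 to 66949516, forward strand, gene ENSMUSG00000036781.13. Rpl3 lies on chromosome 15, 80077791 to 80091868, reverse strand, gene ENSMUSG00000060036.14. Rpl7l1 lies on chromosome 17, 46773907 to 46782672, reverse strand, gene ENSMUSG00000063888.7. No pair is a neighbouring pair on a chromosome.

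The annotated starts of 5 of the 6 genes are in a RefSeq table of start windows on GRCm38.p6. Messages of ribosomal proteins typically begin with a run of C and T. A run of at least 8 such bases within 5 bases of the start was present at 9.38% of all 32851 windows and at 34.9% of 66 windows of core ribosomal protein genes. Rpl22l1, Rps27 and 1 of 2 starts of Rps27l had one, and both starts of Rpl22 and the start of Rpl7l1 did not. The Rps27l run lay wholly before the annotated start, so by that start it is not part of the message. The 30 bases centred on all 7 starts are shown to set the copies beside each other. Capitals mark the longest C and T run that touches the 5 bases on either side of the start, and longer runs farther off are left in lower case.
Rpl22l1, chr3:28805493-28805522, forward strand: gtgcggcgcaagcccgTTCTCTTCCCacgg
Rpl22, chr4:152325711-152325740, forward strand: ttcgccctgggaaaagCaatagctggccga
Rpl22, chr4:152324421-152324450, forward strand: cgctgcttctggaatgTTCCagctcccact
Rps27l, chr9:66946071-66946100, forward strand: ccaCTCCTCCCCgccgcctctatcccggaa
Rps27l, chr9:66946398-66946427, forward strand: accatgggCTTCagggtcactaacgggcct
Rps27, chr3:90213634-90213663, reverse strand: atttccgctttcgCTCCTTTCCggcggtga
Rpl7l1, chr17:46782642-46782671, reverse strand: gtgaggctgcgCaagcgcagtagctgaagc

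A match to the p53 half-site consensus, which reads the same on both strands, occurred in 8.36% of all 300-base start windows and in 44.8% of 29 windows of p53 target genes. The window of the first Rps27l start (chr9:66946071-66946100 above) had no match. The window of the other Rps27l start had 2, at 210 and 107 bases before it, and both lie downstream of the first start. The Rps27 window had 1 match, and those of Rpl22l1, Rpl22 and Rpl7l1 had none. Only half-sites were searched for, so full sites were not assessed, and no binding was measured. Only the Rps27l matches are shown, in capitals, a choice made because this gene rose in the knockdowns. The Rps27 match lay 29 bases after its start and is not shown. The part of these matches in the changes of either gene was not tested.
Rps27l, chr9:66946193-66946222, forward strand: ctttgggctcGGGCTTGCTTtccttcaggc
Rps27l, chr9:66946296-66946325, forward strand: gggcttgttgAGACTTGTCCgggcgacacg

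Rpl22l1 had the largest difference of the 6 genes, and its partner Rpl22 did not pass the test in any knockdown. In EGFPKD, Rpl22l1 was at 291, 255 and 257 TPM in replicates 1 to 3. It was at 108, 81.6 and 93.0 TPM in Ddx10KD and at 128, 138 and 103 TPM in Ddx24KD. In Ddx27KD it was at 96.5, 93.6 and 110 TPM, and in Ddx54KD at 149, 123 and 124 TPM. All 12 knockdown values lay below all 3 control values. As in any bulk RNA, fewer cells that express a gene and less RNA per cell cannot be told apart.

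The fitted log2 change of Rpl22l1 was -1.57 ± 0.12 (SE) in Ddx10KD, -1.13 ± 0.11 in Ddx24KD, -1.45 ± 0.11 in Ddx27KD and -1.05 ± 0.11 in Ddx54KD. Mean TPM was 35.2%, 46.0%, 37.4% and 49.3% of control, in that order. Counted from the lowest of all 14335 changes, the gene ranked 38, 94, 31 and 65. Over 24 other ways of fitting, the change ranged from -1.68 to -1.49 in Ddx10KD, -1.26 to -1.01 in Ddx24KD, -1.51 to -1.39 in Ddx27KD and -1.14 to -0.99 in Ddx54KD.

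Rpl22 was at 306, 309 and 298 TPM in EGFPKD. Across the 12 knockdown libraries it lay between 297 and 326 TPM, so the groups overlapped. Its log2 change was -0.03 in Ddx10KD (95% interval -0.16 to 0.09, edgeR adjusted p 0.702), 0.02 in Ddx24KD (-0.10 to 0.15, 0.820), -0.00 in Ddx27KD (-0.13 to 0.12, 0.986) and 0.02 in Ddx54KD (-0.11 to 0.14, 0.859). These intervals exclude a change of the size seen in Rpl22l1 in any knockdown.

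**Figure D1:**
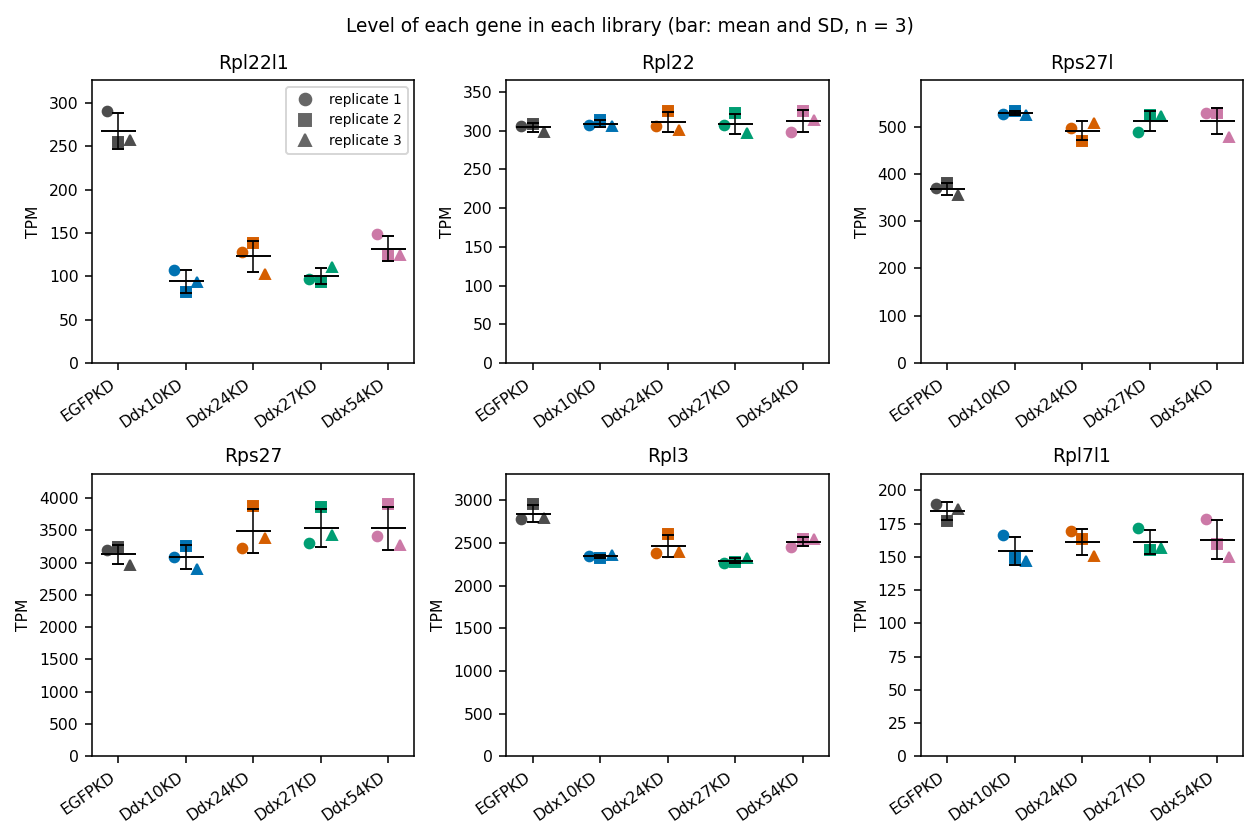
TPM (vertical axes, from 0) of the 6 genes in the 15 libraries by group, where circles, squares and triangles are replicates 1, 2 and 3 and bars give the mean and SD (n = 3). Rpl22l1 is lower and Rps27l higher in all 12 knockdown libraries than in all 3 control libraries, while Rpl22 stays between 297 and 326 TPM.

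Within each library, Rpl22l1 and Rpl22 can be set side by side because TPM is per length. The ratio of Rpl22l1 to Rpl22 was 0.951, 0.824 and 0.862 in EGFPKD, so both genes were near the same level. It was 0.351, 0.260 and 0.303 in Ddx10KD and 0.314, 0.290 and 0.371 in Ddx27KD. In Ddx24KD it was 0.417, 0.424 and 0.342, and in Ddx54KD 0.4996, 0.376 and 0.396. The 12 knockdown ratios lay below the 3 control ratios, and the ratio is a description because Rpl22l1 chose the genes. Rpl22l1 made up 46.7% ± 1.82 of the pair in EGFPKD (SD, n = 3), 23.3% ± 2.68 in Ddx10KD, 28.2% ± 2.37 in Ddx24KD, 24.5% ± 2.36 in Ddx27KD and 29.7% ± 3.195 in Ddx54KD. The summed level of both genes was 572 ± 22.6 TPM in EGFPKD and had means of 403 to 444 TPM in the knockdowns.

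Rps27l rose in all 4 knockdowns, while its partner Rps27 did not pass the main test, which ignores the replicate number, in any. With the replicate number as a block, Rps27 was called higher in Ddx24KD, Ddx27KD and Ddx54KD, by 0.14, 0.13 and 0.14 on the log2 scale. Rps27l was higher there by 0.41, 0.44 and 0.45 in the same fit. Rps27l was at 371, 381 and 355 TPM in EGFPKD. It was at 526, 535 and 526 TPM in Ddx10KD, 498, 471 and 508 in Ddx24KD, 488, 526 and 524 in Ddx27KD, and 529, 529 and 480 in Ddx54KD. All 12 knockdown values lay above the control values.

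The log2 change of Rps27l was 0.46 ± 0.06 (SE) in Ddx10KD, 0.41 ± 0.06 in Ddx24KD, 0.44 ± 0.06 in Ddx27KD and 0.45 ± 0.06 in Ddx54KD. The edgeR adjusted p, over all tested genes, was 2.54e-05, 9.00e-05, 2.95e-05 and 4.41e-05. It was called in each of 24 alternative fits of each comparison, with adjusted p of at most 0.0016. Among the 28 genes of a p53 target list that leaves it out, 5, 4, 4 and 5 had a lower change than Rps27l. Of that list 26, 25, 26 and 26 rose and none fell, with medians of 1.05, 1.07, 1.26 and 0.94 beside 0.01, 0.00, 0.01 and 0.01 over all genes. Smallest p-values there were in Plk2, a polo-like kinase, with changes of 2.54, 2.52, 2.89 and 2.43. Also among the smallest were Pmaip1, a promoter of cell death, with changes of 1.69, 1.61 and 1.66 in Ddx10KD, Ddx24KD and Ddx27KD, and Phlda3. Phlda3, an inhibitor of Akt signalling, changed by 1.77, 1.58, 1.86 and 1.62. Btg2, which restrains growth, changed by 1.93, 2.21 and 1.92 in Ddx24KD, Ddx27KD and Ddx54KD, and Ddit4l, an inhibitor of mTOR signalling, by 2.44 in Ddx10KD and 2.35 in Ddx54KD.

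Rps27 was at 3190, 3243 and 2961 TPM in EGFPKD, and at 3087, 3266 and 2895 TPM in Ddx10KD. In Ddx24KD it was at 3227, 3873 and 3378 TPM, in Ddx27KD at 3300.35, 3863 and 3430 TPM, and in Ddx54KD at 3405, 3910 and 3275 TPM. Replicate 2 was the highest library of every group. By TPM all groups overlapped the control except Ddx27KD and Ddx54KD, whose lowest values were above the highest control value. By counts scaled to library size, Ddx27KD and Ddx54KD overlapped the control too. The log2 change of Rps27 was -0.09 ± 0.09 (SE) in Ddx10KD, 0.15 ± 0.09 in Ddx24KD, 0.13 ± 0.09 in Ddx27KD and 0.14 ± 0.09 in Ddx54KD. By edgeR the adjusted p was 0.535, 0.265, 0.302 and 0.291.

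With the replicate number as a block, Rps27 was called higher in Ddx24KD (adjusted p 0.0112), Ddx27KD (0.0188) and Ddx54KD (0.0150), and not in Ddx10KD (0.109). Without the replicate 2 libraries, a choice made after seeing the data, the changes were -0.11, 0.09, 0.08 and 0.08 with adjusted p of 0.237 to 0.406. Its copy Rps27rt is not counted separately, and its part in these values was not tested.

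The ratio of Rps27l to Rps27 was 0.116, 0.117 and 0.120 in EGFPKD. It was 0.171, 0.164 and 0.182 in Ddx10KD, 0.154, 0.122 and 0.150 in Ddx24KD, 0.148, 0.136 and 0.153 in Ddx27KD, and 0.155, 0.135 and 0.146 in Ddx54KD. All 12 knockdown ratios exceeded the 3 control ratios, the closest being Ddx24KD replicate 2. On the log2 scale the mean difference was 0.54, 0.26, 0.30 and 0.30, or 1.46-fold, 1.199-fold, 1.23-fold and 1.23-fold. Each had a two-sided exact permutation p of 0.1, which is the smallest that 3 against 3 libraries allow, and 0.167 after adjustment over 20 such tests.

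All 12 knockdown libraries against the 3 controls gave a ratio 1.28-fold higher, with an exact permutation p of 0.0044 and an adjusted p of 0.0879, which misses 0.05. As all 12 ratios lay above the 3 controls, 0.0044 is the smallest p that this test can give. With the p-values of the other tests as they were, a larger difference could not have lowered the adjusted p. The miss therefore says nothing about the size of the difference. Permuted within replicate numbers, the p was 0.008, the smallest that this scheme gives. Against the control of the same replicate number the fold was 1.40 to 1.51 in Ddx10KD, 1.04 to 1.33 in Ddx24KD, 1.16 to 1.27 in Ddx27KD and 1.15 to 1.34 in Ddx54KD. Rps27l made up 10.5% ± 0.157 of the pair in EGFPKD (SD, n = 3), 14.7% ± 0.661 in Ddx10KD, 12.4% ± 1.38 in Ddx24KD, 12.7% ± 0.657 in Ddx27KD and 12.7% ± 0.772 in Ddx54KD.

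**Figure D2:**
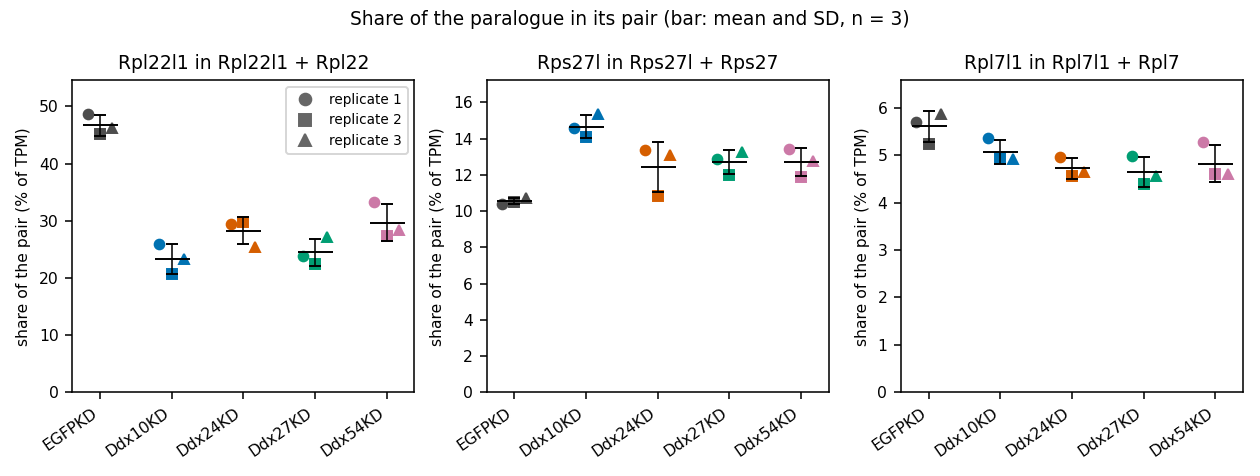
Share of the paralogue in the summed TPM of its pair (percent, from 0) in each library by group, where circles, squares and triangles are replicates 1, 2 and 3 and bars give the mean and SD (n = 3). The Rpl22l1 share goes from 46.7% to between 23.3% and 29.7%, the Rps27l share from 10.5% to between 12.4% and 14.7%, and the Rpl7l1 share from 5.604% to between 4.64% and 5.07%.

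Rpl3 fell in all 4 knockdowns by a small amount. It was at 2777, 2957 and 2792 TPM in EGFPKD, between 2326 and 2364 in Ddx10KD, 2386 and 2609 in Ddx24KD, 2270.3 and 2325 in Ddx27KD, and 2451 and 2546 in Ddx54KD. No knockdown library reached the lowest control library. Its log2 change was -0.34 ± 0.05 (SE) in Ddx10KD, -0.22 ± 0.05 in Ddx24KD, -0.34 ± 0.05 in Ddx27KD and -0.20 ± 0.05 in Ddx54KD. By edgeR the adjusted p was 0.000149, 0.00543, 0.000122 and 0.0106. Rpl3 was called in each of 24 alternative fits of each comparison, with adjusted p of at most 0.0492. Most 50-base windows of Rpl3 also occur in transcripts of other genes, none of which the files count. The part of such transcripts in these values was not tested.

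Rpl7l1 fell in 3 of the 4 knockdowns. It was at 190, 177 and 186 TPM in EGFPKD and at 166, 149 and 147 TPM in Ddx10KD. It was at 170, 163 and 151 TPM in Ddx24KD, 172, 155 and 157 TPM in Ddx27KD, and 179, 160 and 150 TPM in Ddx54KD, where replicate 1 lay within the control range. The log2 changes were -0.31 ± 0.07 (SE), -0.20 ± 0.07, -0.22 ± 0.07 and -0.20 ± 0.07. The edgeR adjusted p was 0.00371 in Ddx10KD, 0.0460 in Ddx24KD, 0.0303 in Ddx27KD and 0.0575 in Ddx54KD. With the replicate block all 4 were called, with 0.00102 in Ddx54KD.

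Single libraries decided the call in Ddx24KD and Ddx27KD, in fits that ignore the pairing. In Ddx24KD it was lost without any 1 of the 3 EGFPKD replicates (adjusted p 0.120, 0.0662 and 0.102), without Ddx24KD replicate 1 (0.0540) or 3 (0.190), and without replicate 2 of Ddx10KD (0.0563), Ddx27KD (0.0529) or Ddx54KD (0.0546). Upper-quartile scaling also lost it (0.0537), and leaving out all replicate 2 libraries ended it in both knockdowns (0.111 in Ddx24KD and 0.154 in Ddx27KD). In Ddx27KD the libraries whose removal ended the call were EGFPKD replicates 1 (0.0886) and 3 (0.0716) and the knockdown's own replicates 2 (0.0899) and 3 (0.109). In Ddx54KD the call was gained by DESeq2 (0.0445), without Ddx24KD replicate 3 (0.0465) and without Ddx54KD replicate 1 (0.0174).

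Its partner Rpl7, a main protein of the large subunit, was at 3141, 3203 and 2985 TPM in EGFPKD. Rpl7 fell in Ddx10KD, by 0.17 on the log2 scale (edgeR adjusted p 0.0344), and was at 0.06, 0.06 and 0.03 in the others (0.489, 0.413 and 0.779). The ratio of Rpl7l1 to Rpl7 was 0.0604, 0.0553 and 0.0624 in EGFPKD. Group means were 0.0534 ± 0.00284 (SD, n = 3) in Ddx10KD, 0.0495 ± 0.00240 in Ddx24KD, 0.0487 ± 0.00342 in Ddx27KD and 0.0507 ± 0.00434 in Ddx54KD. Exact permutation p was 0.2, 0.1, 0.1 and 0.2, where 0.1 is the smallest possible. Over all 12 libraries the ratio was 0.851-fold the control, 10 of 12 lay below all controls, and the exact permutation p was 0.0132 (adjusted 0.132). That p was 0.0659 without EGFPKD replicate 1 or 3, and 0.008 when permuted within replicate numbers.

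Of the 5 genes other than Rpl22l1, 1 rose and 2 fell in each of Ddx10KD, Ddx24KD and Ddx27KD, and 1 rose and 1 fell in Ddx54KD. Over all tested genes 16.5% were called higher and 14.5% lower in Ddx10KD, 15% and 13.1% in Ddx24KD, 17.3% and 16.1% in Ddx27KD, and 13.1% and 11.2% in Ddx54KD. So the count of members that rose, 1 of 5, is close to these shares. With the block, 1 rose and 2 fell in Ddx10KD, and 2 rose and 2 fell in each of the other knockdowns. All-gene shares were then 22.8% higher and 21.3% lower in Ddx10KD, 21.3% and 19.9% in Ddx24KD, 23.3% and 22.6% in Ddx27KD, and 20% and 18.8% in Ddx54KD. Without the replicate 2 libraries, 3, 2, 2 and 2 members were called. The shares of all genes called were not counted in that fit, so these counts cannot be set against them. The 4 comparisons share the EGFPKD libraries.

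In a test over all 5 groups at once, 3 of the 5 genes were called, where 29% of all genes were. These were Rps27l (edgeR adjusted p 7.55e-05), Rpl3 (0.000536) and Rpl7l1 (0.0312), and Rps27 (0.186) and Rpl22 (0.921) were not. With the block Rps27 was added (0.000397), 49.5% of all genes were called, and Rpl22 was at 0.564.

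The main ribosomal proteins lay closer to 0 than the called members. Of 77 core ribosomal protein genes, 3 rose and 7 fell in Ddx10KD, 14 rose and none fell in Ddx24KD, 8 rose and 1 fell in Ddx27KD, and 6 rose and none fell in Ddx54KD. Their median log2 changes were -0.01, 0.12, 0.09 and 0.09, beside 0.01, 0.00, 0.01 and 0.01 over all genes. All 77 core genes lay above Rpl3, Rpl7l1 and Rpl22l1 and below Rps27l in each knockdown. The lowest core change was -0.29, in Rps20 in Ddx10KD.

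Core proteins with the smallest p included the large-subunit genes Rpl10a (-0.17) and Rpl10 (-0.16) and the small-subunit genes Rps20 (-0.29) and Rps2 (0.20) in Ddx10KD. In Ddx24KD they included Rpl23a (0.23), Rps3 (0.20) and Rps15 (0.22). In Ddx27KD and Ddx54KD they included Rpl23a (0.21 and 0.22), Rps10 (0.23 and 0.21) and Rps15 (0.19 and 0.20). With the block, 7 rose and 13 fell in Ddx10KD, 46 and 0 in Ddx24KD, 34 and 1 in Ddx27KD, and 35 and 0 in Ddx54KD. Single libraries moved the core counts. The 3 that rose in Ddx10KD became 0 without EGFPKD replicate 1 or 3 or Ddx10KD replicate 2, and the 7 that fell became 2, 2 and 1 without EGFPKD replicate 2 and Ddx10KD replicates 1 and 3. The 14 that rose in Ddx24KD became 5, 6, 8 and 7 without EGFPKD replicates 1 and 3 and Ddx24KD replicates 2 and 3. The 8 that rose in Ddx27KD became 3 and 4 without EGFPKD replicates 1 and 3, and 4, 2 and 13 without Ddx27KD replicates 1, 2 and 3. The 1 that fell there was lost without EGFPKD replicate 2 or Ddx27KD replicate 3. The 6 that rose in Ddx54KD became 2 without EGFPKD replicate 1 and 1 without Ddx54KD replicate 2. The 77 genes held 19.8% to 20.8% of all TPM in EGFPKD and 20.8% to 22.8% in the knockdowns.

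**Figure D3:**
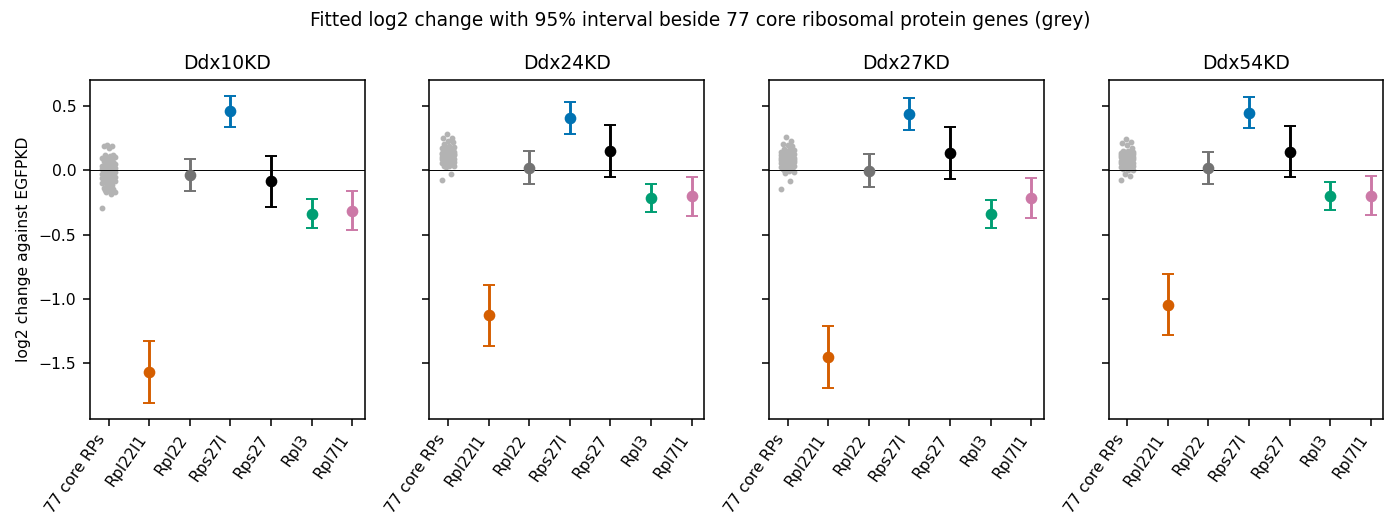
Fitted log2 change against EGFPKD (vertical axis) of the 6 genes with 95% intervals, and of 77 core ribosomal protein genes as grey points, in 1 panel for each knockdown. Rpl22l1 lies at -1.57 to -1.05, Rpl3 and Rpl7l1 lie just under the grey points, and Rps27l lies above them at 0.41 to 0.46.

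Against these core genes the members stood at different levels. In EGFPKD, among 83 ribosomal protein genes ordered from the highest mean TPM, Rps27 ranked 22 and Rpl3 33. Rps27l ranked 79, Rpl22 80, Rpl22l1 81 and Rpl7l1 82. Rpl22 was thus, at 304 ± 5.78 TPM (SD, n = 3), far under the median core gene at 2562 TPM and close to its own paralogue.

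Of 7 other tested ribosomal protein paralogues and related assembly factors, none rose. Rpl36al, a copy of a large-subunit gene, fell in all 4 knockdowns, by 0.32, 0.17, 0.18 and 0.19 on the log2 scale. The assembly factor Mrto4 fell by 0.16 in Ddx24KD, 0.24 in Ddx27KD and 0.16 in Ddx54KD, and was at -0.08 in Ddx10KD. Rpl39l, Rps4l, Rpl3l, Rpl10l and Rsl24d1 were not called, with changes from -0.48 to 0.04. With the block, Rpl39l in Ddx10KD (edgeR adjusted p 0.00121) and Rpl39l and Rps4l in Ddx27KD (0.0318 and 0.00718) were also called lower.

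Between knockdowns, 1 of 36 differences was called. Rpl22l1 was lower in Ddx10KD than in Ddx54KD, by 0.52 ± 0.12 on the log2 scale (SE, edgeR adjusted p 0.0354), where 1.43% of all genes were called. Removing Ddx10KD replicate 2 (0.154) or 3 (0.147) ended that call, as did removing Ddx54KD replicate 1 (0.122), 2 (0.0968) or 3 (0.0578). It was also missed when these groups were fitted by themselves (0.0588) or without all replicate 2 libraries (0.233). With the block it was kept (0.00186), and Rps27 (0.00237) and Rpl3 (0.0129) were called lower in Ddx10KD too, where 10.6% of all genes were called. The members were picked with results of these libraries known.

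No member was called in the other 5 pairs, where the shares of all genes called were 0.412% (Ddx10KD against Ddx24KD), 0.223% (Ddx10KD against Ddx27KD), 0.0209% (Ddx24KD against Ddx27KD), 0.0558% (Ddx24KD against Ddx54KD) and 0.014% (Ddx27KD against Ddx54KD). At an unadjusted p under 0.05, edgeR gave 8 of these 30 differences. The share of all genes under that unadjusted threshold was not counted, so no excess can be read from the 8. With the block the shares of all genes called after adjustment were 5.41%, 5.34%, 0.0558%, 1.74% and 2.62%. Then Rpl22l1 (adjusted p 0.0125), Rps27 (0.00414) and Rpl3 (0.0441) were called lower in Ddx10KD than in Ddx24KD, and Rps27 (0.00715) lower in Ddx10KD than in Ddx27KD. Rpl22l1 (0.0304) and Rpl3 (0.0332) were called lower in Ddx27KD than in Ddx54KD. Without the block, Rpl22l1 was lower in Ddx10KD than in Ddx24KD by 0.44 on the log2 scale (edgeR adjusted p 0.139), and DESeq2 (0.0269) and the fit without Ddx24KD replicate 3 (0.0384) called it.

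Rps27l was not called different between any of the 4 knockdowns. Its differences between them lay between -0.04 and 0.05 on the log2 scale, and the widest 95% intervals reached -0.16 and 0.17. By mean CPM (counts scaled to library size), Rpl22l1 was ordered EGFPKD, Ddx54KD, Ddx24KD, Ddx27KD and Ddx10KD from the highest. EGFPKD did not overlap its neighbour, and the 4 knockdowns overlapped each neighbour. Rpl3 was ordered EGFPKD, Ddx54KD, Ddx24KD, Ddx10KD and Ddx27KD, where Ddx24KD did not overlap Ddx10KD.

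**Figure D4:**
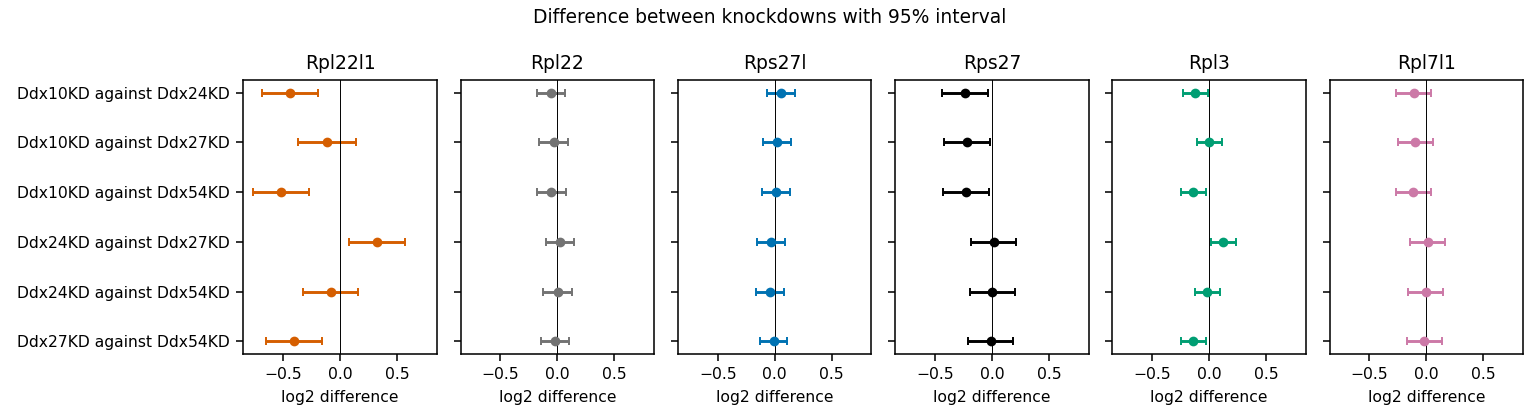
Log2 difference between pairs of knockdowns (horizontal axis, the first named minus the second) with 95% intervals, in 1 panel for each gene. The largest is the -0.52 of Rpl22l1 in Ddx10KD against Ddx54KD, and all differences of Rps27l lie between -0.04 and 0.05.

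The genes most like Rpl22l1 across the 15 libraries, among 8501 compared, were Cs (Pearson r 0.984), Mov10 (0.980), Cdc25a (0.979), Zfp518b (0.978) and Tuba4a (0.977). For Rps27l they were Myof (0.951), Mgmt (0.949), Cpped1 (0.947), Perp (0.947) and Rbm22 (0.946). These are descriptions of log2 CPM over libraries that share groups, with the 3 EGFPKD libraries apart from the rest, and carry no test. The sizes differed: Mov10, an RNA helicase, changed by -1.17, -0.81, -1.05 and -0.81, and Cs, citrate synthase, by -0.31, -0.25, -0.32 and -0.20. Perp, a p53 target of epithelia, changed by 2.10, 2.09, 2.14 and 2.08, and Rbm22, a splicing factor, by 0.38, 0.41, 0.42 and 0.38.

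The files also give each gene a mean transcript length, which shifts when isoforms change their shares. It varied for Rpl22 (2203.14 to 2203.69 bases) and Rps27 (346.41 to 346.79 bases), the members with more than 1 transcript in the files. The other members have 1 transcript there, so isoforms of Rpl22l1, for which GENCODE lists 9 transcripts, were not measured. Rps27 was shorter in all libraries of Ddx24KD, Ddx27KD and Ddx54KD than in the controls, by 0.163, 0.173 and 0.127 bases on average, each at the smallest exact permutation p of 0.1. By RSEM's effective length, which also depends on fragment size, the Ddx24KD difference was of the other sign, at 0.113 bases. Over 12 against 3 libraries the exact permutation p was 0.0835, and for Rpl22 it was 0.884.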

How the data were processed

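The members and all gene lists were chosen with earlier results of these data known. Expected counts per gene and TPM were computed by the authors with RSEM against the mm10 build, as the submitters' processing notes list them. For the RSEM version, the aligner and the annotation the entry is: not given in the sources used here. The deposited FPKM values were not used, and the deposited transcript lengths in bases were used only for the isoform comparison. The authors' deposited tables of EBSeq ratios, fold values and posterior probability scores are quoted as theirs.

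Expected counts were rounded to whole numbers and genes filtered with filterByExpr, which left 14335 of 23845 genes holding 99.97% of counts. One edgeR 4.0.16 quasi-likelihood fit (R 4.3.3, TMM scaling) of 15 libraries gave all comparisons, with Benjamini-Hochberg adjustment over all tested genes and a threshold of 0.05. It was first tested on simulated data. Ratios used TPM within a library, with exact two-sided permutation tests in Python 3.11.15 and adjustment over 20 tests. Depth was 26836946 to 27708782 expected counts per library.

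Replicate numbers of the labels paired the libraries: all 30 correlations of same-numbered libraries' deviations from group means exceeded 0.1 (0.106 to 0.335), and the 60 between different numbers lay between -0.249 and 0.0530. The main fit has no block, and the fit with one is an alternative. Others were DESeq2 1.42.0, other scalings and filters, and single libraries left out. All 15 pairs of replicates differed by more than counting noise (mean chi-squared per gene 5.67 to 20.02). Named genes were the 6 members, Rpl7, the other paralogues, the targets, up to 4 genes of smallest p from the core and p53 lists in each comparison, and the 5 most correlated genes for Rpl22l1 and Rps27l. One gene that this rule names is not reported here.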

Additional observations from a re-analysis of the deposited data

How the results depend on the processing

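No called difference changed its sign under any alternative. Signs did change, with no call under either sign, in 22 gene differences and 4 length differences. The lengths were those of Rpl22 in Ddx10KD (0.08 to -1.25 bases by effective length), in Ddx24KD (0.08 to -0.0167) and over all knockdowns (-0.0108 to 0.029), and of Rps27 in Ddx24KD (-0.163 to 0.113 by effective length). With the replicate block the core ribosomal protein counts were 13 lower and 7 higher in Ddx10KD, and 46, 34 and 35 higher in Ddx24KD, Ddx27KD and Ddx54KD. With the block 4 members were called in Ddx54KD, and 3, 1, 3 and 2 members in Ddx10KD against Ddx24KD, Ddx27KD and Ddx54KD and in Ddx27KD against Ddx54KD. Beyond these and the calls given with the block above, pairing changed no other call of a member. DESeq2 called 1 member in Ddx10KD against Ddx24KD. Fitting the compared groups alone gave 14 core genes higher in Ddx27KD and 0 members in Ddx10KD against Ddx54KD.

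Without all replicate 2 libraries, chosen after seeing the data, 0 core genes were lower in Ddx27KD, 1 was higher in Ddx54KD, and 0 members were called in Ddx10KD against Ddx54KD. The Rpl22 length difference was then -0.035 bases in Ddx27KD and 0.029 over all knockdowns, and that of Rps27 -0.22 in Ddx24KD. By effective length the differences were -1.25, 0.36, -3.68 and -2.55 bases for Rpl22 and -1.33, 0.113, -3.77 and -2.55 for Rps27.

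Leaving out 1 library, core genes called in Ddx10KD ranged from 1 to 8 lower and 0 to 3 higher. Those higher ranged from 5 to 16 in Ddx24KD, 2 to 13 in Ddx27KD and 1 to 9 in Ddx54KD, and those lower from 0 to 1 in Ddx27KD. Members called ranged from 0 to 1 in Ddx10KD against Ddx24KD and against Ddx54KD. The Rpl7l1 to Rpl7 log2 ratio over all knockdowns ranged from -0.283 to -0.196. Length differences ranged from -0.103 to -0.0483 bases (Rpl22, Ddx27KD), -0.0367 to 0.0208 (Rpl22, all) and -0.141 to -0.0958 (Rps27, all). The causes were not tested.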

Other observations

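The authors' deposited table of each knockdown gives ratios against EGFPKD for the same genes, from another tool. For Rpl22l1 the authors' deposited tables give 0.336, 0.475, 0.364 and 0.482 in Ddx10KD, Ddx24KD, Ddx27KD and Ddx54KD. For Rps27l the authors' deposited tables give 1.37, 1.34, 1.35 and 1.36. For Rpl3 the authors' deposited tables give 0.789, 0.854, 0.789 and 0.867, and a posterior probability of a difference of 0.451 in Ddx24KD, where edgeR called Rpl3 lower. For Rpl7l1 the authors' deposited tables give 0.801, 0.866, 0.859 and 0.868, and a posterior probability of 0.301 in Ddx54KD, where edgeR did not call it. Ratios in the authors' deposited table of Ddx24KD do not follow closely from the deposited libraries. Deviations were taken over genes above a minimum mean expected count, around their median log2 offset from ratios of these libraries. The median absolute deviation was 0.0303 in the authors' deposited table of Ddx24KD and 0.000488 in that of Ddx10KD.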
